A study of Mus musculus with 48 samples.

Results

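The cytosolic ribosomal proteins are the protein subunits of the ribosome that translates nuclear messages. The genes described here were those whose symbol is Rpl (large subunit) or Rps (small subunit) followed by a number, with Rplp0, Rplp1, Rplp2 and Rpsa. Pseudogenes and the Rps6k kinases were left out, and members were selected on a mean of at least 5 CPM over all 48 libraries, CPM being a gene's reads scaled by all reads that the library had on genes. Of 80 genes with such a symbol, 76 were members, 45 of the large and 31 of the small subunit, among 55414 genes in the table. Just inside the limit were Rpl13a at 11.5 CPM, Rpl24 at 13.9 CPM and Rpl23a at 32.5 CPM. Just outside were Rps10 at 1.149 CPM, Rpl3l, a striated muscle paralog of Rpl3, at 0.229 CPM, and Rpl39l at 0.160 CPM, with Rpl10l, like Rpl39l known for expression in testis, at 0.00927 CPM. Whether the low value of Rps10 reflects its level in liver or reads that were not counted on it was not tested.

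The libraries came from liver of FCG mice, a model in which the testis-determining gene Sry is separated from the Y chromosome. XX and XY- mice had ovaries (Ov), and XX;SryTg and XY-;SryTg mice, which carry an autosomal Sry transgene, had testes (Te), on a C57BL/6 background. Each genotype was studied with gonads (Intact, 11 weeks of high-fat diet, HFD) and after gonadectomy at 75 days of age (GDX, 15 weeks of HFD), giving 8 groups of 6 mice with 1 library per mouse. All mice received the diet, with 60% of calories from fat, from an age of 15 to 17 weeks, so the Intact and GDX cohorts also differed in weeks of diet and in age, and these cannot be told apart from removal of the gonads. XY- is written XY below.

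Each ribosome carries a single copy of most of these proteins, and their genes are among the most evenly coordinated in mammalian cells. Their messages are short and abundant. Many of them begin at a cytosine followed by a run of pyrimidines, the 5′ terminal oligopyrimidine (TOP) tract, which the RNA-binding protein Larp1 recognizes and through which the kinase mTOR adjusts their translation and stability. Liver, which makes most plasma proteins, keeps a large pool of ribosomes. In bulk liver, fewer cells of a type and less RNA per cell cannot be told apart.

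The start-site sequences of members are shown because the TOP tract is the feature that members are best known to share. Promoter windows from RefSeq (GRCm38.p6), with 250 bases before and 50 after each annotated start, matched 56 of the 76 members. Of these, 27 (48.2%) had a C followed by at least 4 C or T within 5 bases of an annotated start, against 21.2% of all 27025 genes with a window. The capitals mark that pyrimidine run, from its first C within the 5 bases, in 30 bases of the sense strand. Only members with the run are shown, whereas 29 of the 56 lacked it. Some of those shown fell strongly in GDX mice (Rps27l, Rps24, Rpl35, Rps15a). The others are Rps6, whose protein the TOR pathway kinases phosphorylate, and Rpl28, one of the members that changed least.
Rps24, chr14:24490668-24490697, plus strand: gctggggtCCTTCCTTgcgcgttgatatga
Rps27l, chr9:66946076-66946105, plus strand: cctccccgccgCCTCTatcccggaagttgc
Rpl35, chr2:39005112-39005141, minus strand: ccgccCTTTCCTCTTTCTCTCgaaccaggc
Rps15a, chr7:118116128-118116157, minus strand: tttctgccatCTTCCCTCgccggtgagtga
Rps6, chr4:86857348-86857377, minus strand: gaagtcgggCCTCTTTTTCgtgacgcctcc
Rpl28, chr7:4792955-4792984, plus strand: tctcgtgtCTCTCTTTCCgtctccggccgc

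In the same windows, CCGGAAG, which holds the core bound by ETS-family factors such as GABP, was present on either strand in 23 of the 56 windows (41.1%) and in 9.93% of all genes' windows. AAGATGG was present in 9 (16.1%, all genes 7.28%), GGGCGG in 34 (60.7%, all genes 38.2%), CCAAT in 19 (33.9%, all genes 41.1%) and TATAA in 16 (28.6%, all genes 28%), both strands being searched. The 30 bases below lie upstream of the start and show CCGGAAG, or its reverse complement, in capitals.
Rps25, chr9:44407630-44407659, plus strand: cacccattgccCCGGAAGtactctctcgag
Rps6, chr4:86857440-86857469, minus strand: ttaatctacgcCCGGAAGtaacgcccctct
Rpl35, chr2:39005240-39005269, minus strand: ggaaggcaggaCTTCCGGgaagcggagggc
Rps2, chr17:24719925-24719954, plus strand: atttatacgtcCTTCCGGctggtgtagggc
Members with and without the TOP run had median log2 fold changes in GDX against Intact mice of -1.74 (27 genes) and -1.57 (29 genes), and those with and without CCGGAAG had -1.53 (23 genes) and -1.74 (33 genes). Both Rps25, with one of the lowest log2 fold changes, and Rps2, with one of the highest, carried that motif.

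Each library held between 13071874 and 20045141 reads on genes, so that 3 reads corresponded to 0.150 to 0.230 CPM, a floor for counting error only. Reads aligned uniquely but to no gene's annotated exons as counted, which the counter reports as N_noFeature, made up 3.47% to 6.20% of all reads in the 24 Intact and 8.52% to 11.3% in the 24 GDX mice, ranges that did not overlap. Reads mapping to several places, which are not counted on any gene, made up 10.7% to 18.9% in Intact and 8.59% to 10.8% in GDX mice. Members share sequence with many pseudogenes, so levels of single members can be too low by an unknown amount. The 139 rows whose symbol marks a ribosomal protein pseudogene (-ps) held 0.00198% to 0.0150% of the reads counted on genes. Pseudogenes under other symbols or without a symbol are not in that share. Albumin, the defining hepatocyte product, was abundant in every library.

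Per kilobase of median annotated transcript, the mean level over the 48 mice was highest for Rps24 at 1042 CPM per kb, Rps27l at 692 and Rpl17 at 669. The protein of Rps24 belongs to the body of the small subunit, Rps27l is a paralog of Rps27 known as a p53 target, and the protein of Rpl17 lies near the peptide exit tunnel. The lowest were Rpl13a at 11.5 CPM per kb, Rpl24 at 21.6 and Rps20 at 36.2. Rps20, at a mean of 134 CPM, had the longest annotated transcript of the members (3706 nt), and its low place rests on that annotated length. That order mixes cohorts with different levels. In GDX mice alone the means were 304 CPM per kb for Rps24, 289 for Rpl4 and 272 for Rpl10, with 201 for Rpl17 and 186 for Rps27l, against 1137 for Rpl17 and 1198 for Rps27l in Intact mice. The median over members was 202 CPM per kb, and the highest level was 91.0 times the lowest although most of the proteins are made in equal number. With the longest in place of the median transcript, Rpl17 was the highest and Rpl24 the lowest. The order of the members per kilobase was similar in Intact and GDX mice (Spearman's rho 0.76 over 76 genes, which share the libraries).

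Summed over the 76 genes, ribosomal protein messages took 0.636% to 3.84% of reads counted on genes in Intact mice (median 1.71%) and 0.572% to 0.889% in GDX mice (median 0.676%). Of the 24 Intact mice, 21 lay above every GDX mouse, and 3, one each of XX Ov, XX Te and XY Te, lay within the GDX range. The Intact shares were spread 6.05-fold from lowest to highest and the GDX shares 1.55-fold.

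**Figure D1:**
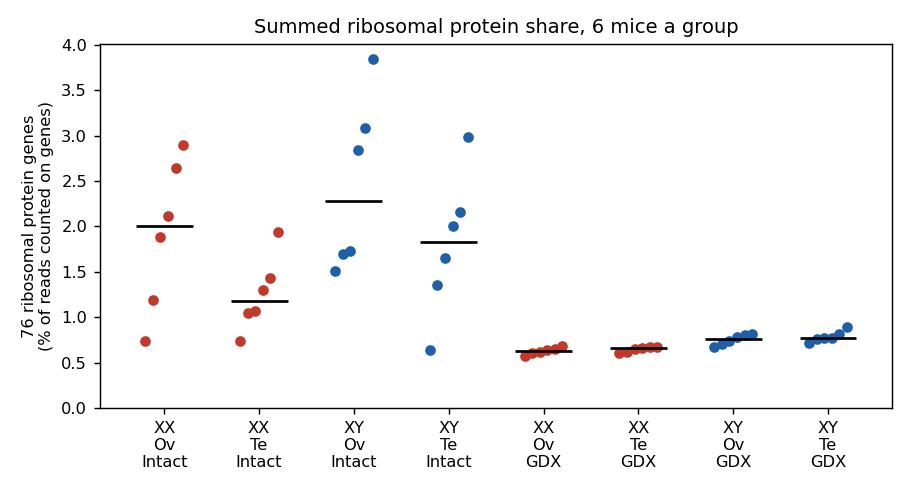
Summed share of the 76 ribosomal protein genes in the reads counted on genes (%, y axis) for each mouse (points, 6 a group), with the group median as a bar, XX in red and XY in blue. The Intact groups reach from 0.636% to 3.84%, the GDX groups from 0.572% to 0.889%, with the XY GDX mice above most XX GDX mice.

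By group, the lowest, median and highest shares were 0.735%, 2.0% and 2.89% in XX Ov Intact mice, and 0.735%, 1.18% and 1.94% in XX Te Intact mice. They were 1.5%, 2.28% and 3.84% in XY Ov Intact mice, and 0.636%, 1.83% and 2.98% in XY Te Intact mice. The 4 Intact groups overlapped. In the GDX cohort they were 0.572%, 0.628% and 0.677% in XX Ov, 0.603%, 0.656% and 0.675% in XX Te, 0.675%, 0.756% and 0.819% in XY Ov, and 0.713%, 0.767% and 0.889% in XY Te. Groups with the same sex chromosomes overlapped, and 11 of the 12 XY GDX mice lay above all 12 XX GDX mice.

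Most members varied together from mouse to mouse. Among the 24 Intact mice the median correlation of log2 CPM over the 2850 pairs of members was 0.96, and among the 24 GDX mice it was 0.89. The correlation was positive in 2775 Intact and 2777 GDX pairs. Rpl24 had r = -0.58 with the summed share in Intact mice, and Rps27l had -0.37 in GDX mice. These values share libraries and the total to which reads were scaled. The coefficient of variation of a member had a median of 41.7% (8.06% to 69.5%) in Intact mice, against 30.8% for all tested genes, and of 13.2% (6.8% to 21.1%) in GDX mice, against 17.5% for all tested genes. By coefficient of variation Rpl35 (69.5%), Rps25 (68.1%) and Rps24 (67.8%) varied most in Intact mice, and the highest Intact mouse for Rps24 was 26.2 times the lowest. Rpl4 varied least, at 1.46 times.

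The N_noFeature share did not move with the members in the same way in the 2 cohorts. Within Intact mice, Pearson's r between the summed share and the N_noFeature share was -0.48 (Spearman's rho -0.42, n = 24), and -0.48 without the 2 mice farthest from the median N_noFeature share. It was -0.44 in the 12 XX and -0.57 in the 12 XY Intact mice, and -0.24 and -0.56 without the 2 farthest mice of each. Within GDX mice r was 0.69 (rho 0.76, n = 24), and 0.70 without the 2 farthest mice, but 0.22 in the 12 XX and -0.01 in the 12 XY GDX mice (-0.02 and -0.38 without the 2 farthest of each), so the pooled GDX value rested on the difference between XX and XY mice. No value over both cohorts is given, since their N_noFeature ranges did not overlap. Of the 76 members, 72 had a negative r with the N_noFeature share in Intact mice (lowest -0.45) and 1 in GDX mice. That member, Rps27l, had r = -0.49 in GDX mice.

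**Figure D2:**
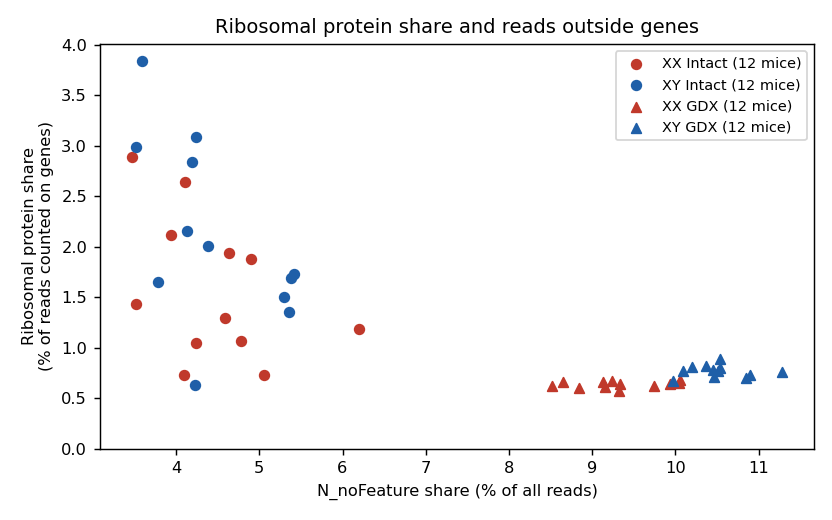
Summed ribosomal protein share (% of reads counted on genes) against the N_noFeature share (% of all reads), 1 point per mouse, circles for Intact, triangles for GDX, XX in red and XY in blue. Intact mice lie between 3.47% and 6.20% of N_noFeature reads and GDX mice between 8.52% and 11.3%, and the XY GDX mice sit to the right of and above most XX GDX mice.

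The question of the first comparison was how members differ between gonadectomized and intact mice. Ribosomal protein messages were lower after GDX in both subunits: 75 of 76 members fell and none rose in edgeR's quasi-likelihood test at an adjusted p under 0.05, whereas 34.9% of all 15414 tested genes fell. The median log2 fold change was -1.55 for members and 0.07 for all tested genes. With library totals in place of TMM these medians were -1.30 and 0.27, 72 members fell and 1 rose, and the calls over all genes moved from 6358 higher and 5381 lower to 8485 higher and 3867 lower. The 45 large subunit genes had a median of -1.47 and the 31 small subunit genes one of -1.67, and 62 members lay below -1. In CPM, none of the members had every Intact mouse above every GDX mouse, a separation that 0.324% of all tested genes showed. On TMM-scaled CPM 1 member, Rpl29, showed it, against 0.856% of all tested genes. By gonad, every Ov Intact mouse lay above every Ov GDX mouse for 8 members in CPM (2.98% of all tested genes) and for 65 on TMM-scaled CPM (8.07% of all tested genes). Every Te Intact mouse lay above every Te GDX mouse for 1 member, Rpl29, in CPM (1.27% of all tested genes) and on TMM-scaled CPM (2.26% of all tested genes). These counts by gonad were added after seeing the data.

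With the N_noFeature share as a covariate, no member was called lower and the median turned to 0.80. Because the 2 cohorts did not overlap in that share, the covariate and GDX cannot be told apart in this fit. With 1 surrogate variable the median was -0.78 and all 75 calls were made, and leaving out any single mouse kept the number at 75.

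Markers of other cell types also differed between the cohorts. All 4 erythroid markers fell (median -0.78), with a summed level of 23.4 to 130 CPM in Intact and 27.8 to 90.3 CPM in GDX mice. Of 11 stellate cell and fibroblast markers 6 rose and 1 fell, with 244 to 486 CPM in Intact and 232 to 839 CPM in GDX mice, and Col1a1, a fibrillar collagen, had 1.66. Of 24 leukocyte markers 7 rose and 9 fell, with 282 to 2160 CPM in Intact and 202 to 2420 CPM in GDX mice. Of 10 endothelial markers 4 rose and 2 fell, with 191 to 419 CPM in Intact and 193 to 631 CPM in GDX mice. No marker of these lists was at 0 in every mouse, and their part in the result was not tested.

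**Figure D3:**
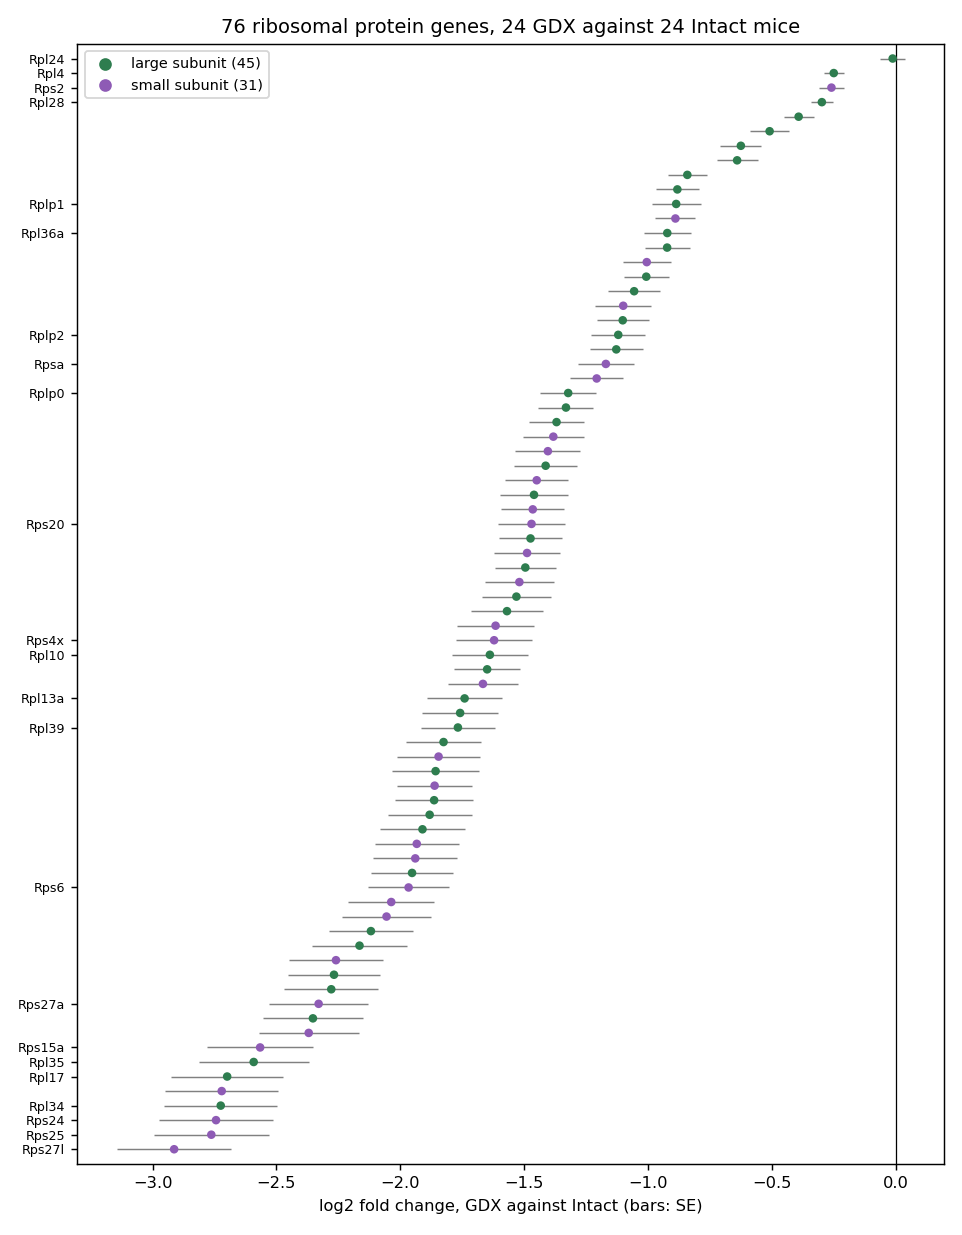
Log2 fold change (x axis, bars show SE) of each of the 76 ribosomal protein genes between 24 GDX and 24 Intact mice, sorted, large subunit in green and small subunit in purple, with a selection of genes labelled. The values run from -2.91 for Rps27l to -0.01 for Rpl24, and Rpl24 is the only gene whose bar reaches 0.

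Rps27l was lowest after GDX. Its level in Intact mice was 49.1 CPM at the lowest, 485 at the median and 1230 at the highest, and in GDX mice 78.6, 89.1 and 99.0 CPM. A single Intact mouse, XY Te Intact replicate 5, lay below the GDX mice, and the rest lay above them. The log2 fold change was -2.91 (SE 0.23, adjusted p = 2.6e-14, edgeR).

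Rps25, a protein of the small subunit's head that some viral internal ribosome entry sites need, had 64.4, 481 and 1663 CPM in Intact and 80.5, 96.7 and 138 CPM in GDX mice, with a log2 fold change of -2.76 (SE 0.23). Rps24 had 88.5, 723 and 2319 CPM in Intact and 106, 136 and 189 CPM in GDX mice, with a log2 fold change of -2.74 (SE 0.23). For Rps24, 21 of 24 Intact mice lay above every GDX mouse. Rpl34, of the large subunit, had 26.9, 222 and 689 CPM in Intact and 34.6, 44.2 and 57.6 CPM in GDX mice, with a log2 fold change of -2.73 (SE 0.23). In all of these genes the same Intact mouse was lowest, and the GDX values lay close together.

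**Figure D4:**
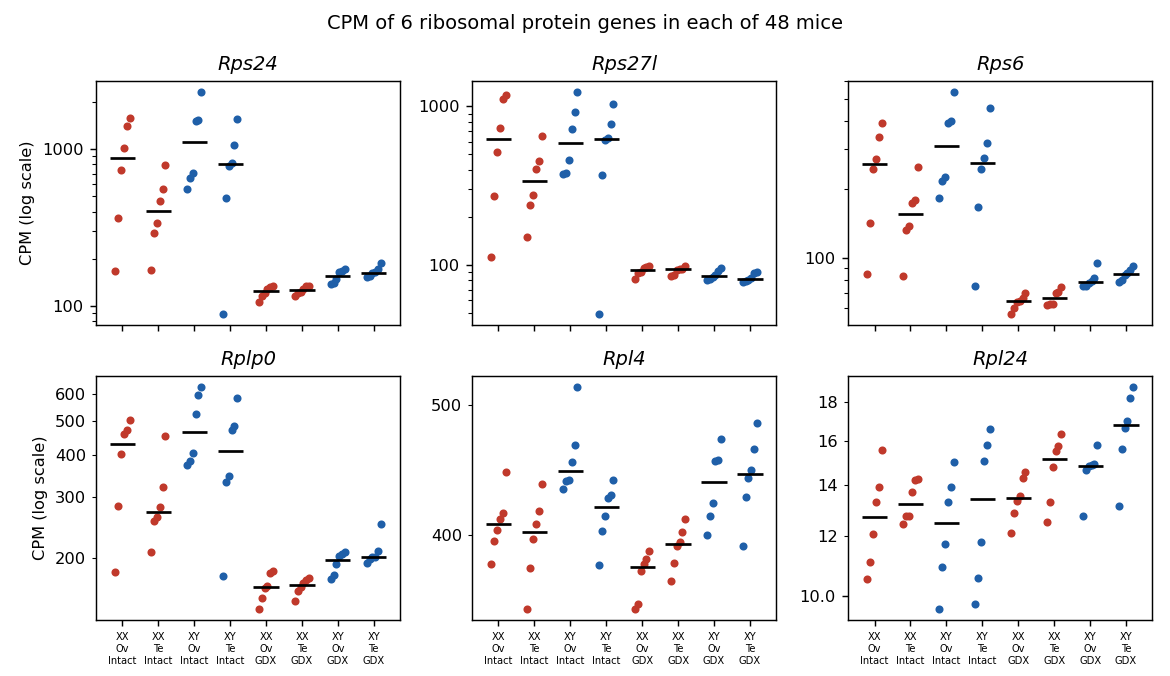
CPM (log scale, a scale of its own in each panel) of Rps24, Rps27l, Rps6, Rplp0, Rpl4 and Rpl24 in each of the 48 mice, by group, with the group median as a bar, XX in red and XY in blue. Rps24 spans 88.5 to 2319 CPM in Intact and 106 to 189 CPM in GDX mice, while Rpl4 lies between 352.5 and 516 CPM in Intact and between 352.4 and 485 CPM in GDX mice.

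At the other end, Rpl24, a large subunit protein at the interface of the subunits, had 9.61, 13.0 and 16.6 CPM in Intact and 12.1, 14.8 and 18.9 CPM in GDX mice. It did not pass the test (log2 fold change -0.01, SE 0.05, adjusted p = 0.81, edgeR), and with library totals or with length and GC offsets it was called higher (0.19 and 0.54). The mean of Rpl24, 13.9 CPM, was among the lowest of the members. Its annotated transcripts had a median of 644 nt and a longest of 4999 nt. Whether the reads counted on Rpl24 follow its mature message was not tested. Rpl4, which reaches into the peptide exit tunnel, had 352, 416 and 516 CPM in Intact and 352, 401 and 485 CPM in GDX mice (log2 fold change -0.25, SE 0.04). Rps2, at the entry of the message channel, had 168, 231 and 314 CPM in Intact and 207, 220 and 254 CPM in GDX mice (log2 fold change -0.26, SE 0.05). Rpl28 had 105, 132 and 171 CPM in Intact and 103, 125 and 146 CPM in GDX mice (log2 fold change -0.30, SE 0.04). The ranges of these genes overlapped almost entirely, Rpl4, Rps2 and Rpl28 were not called with library totals, and Rpl4, Rpl28 and the X-linked Rpl36a were not called with length and GC offsets.

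The P stalk, which recruits the GTPase translation factors, consists of Rplp0 bound to dimers of Rplp1 and Rplp2. Rplp0 had 177, 391.7 and 630 CPM in Intact and 142, 180 and 251 CPM in GDX mice, a log2 fold change of -1.32 (SE 0.11). Rplp1 had 78.3, 154 and 262 CPM in Intact and 75.1, 94.6 and 127 CPM in GDX mice (-0.89, SE 0.10), and Rplp2 had 47, 87.6 and 162 CPM in Intact and 37.4, 48.1 and 63.2 CPM in GDX mice (-1.12, SE 0.11). All 3 fell, by less than the median member.

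Rps6 had 75.0, 237 and 536 CPM in Intact and 56.4, 74.7 and 95.2 CPM in GDX mice, a log2 fold change of -1.97 (SE 0.17), with 21 of 24 Intact mice above every GDX mouse. Rpsa, which is also known as a laminin receptor, had 134, 265 and 471 CPM in Intact and 112, 135 and 184 CPM in GDX mice (-1.17, SE 0.11). Rps27a, made as a fusion of ubiquitin with a small subunit protein, had 65.0, 330 and 1000 CPM in Intact and 70.1, 84.4 and 124 CPM in GDX mice (-2.33, SE 0.20). Rps20, despite its long annotated transcript, had 71.7, 180 and 375 CPM in Intact and 64.1, 74.5 and 117 CPM in GDX mice (-1.47, SE 0.14).

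By gonad, 75 members fell with ovariectomy (33.4% of all tested genes fell) and 75 with castration (29.9% of all tested genes fell), in the same edgeR test. Both comparisons are made of the same mice as the GDX comparison. The median log2 fold change of members was -1.85 with ovariectomy and -1.25 with castration. Rps24 had -3.21 (SE 0.33) with ovariectomy and -2.28 (SE 0.32) with castration, and Rps27l had -3.20 (SE 0.33) and -2.62 (SE 0.32). All 76 members, which varied together, had a positive difference of castration minus ovariectomy (median 0.56, all tested genes 0.04). Of them 51 had an unadjusted p under 0.05, as did 3609 of all 15414 tested genes. None of the members passed the edgeR test of that difference after adjustment, where 5.6% of all tested genes did. The smallest adjusted p of a member was 0.078. Without XY Te Intact replicate 3 the test called 9 members, without XX Ov Intact replicate 3 it called 8, and leaving out any of 4 other Intact mice gave 1 call.

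Ribosomal protein genes were compared with other genes by length, because all but 2 of the 76 had a median transcript of at most 1500 nt. Lengths ranged from 345 to 3706 nt with a median of 725.5 nt, and the median over tested genes with a length was 2285 nt. Log2 fold changes in GDX mice rose with length over the non-members, with medians of -0.32, -0.03, 0.15 and 0.33 from the shortest to the longest length quartile. Non-members no longer than the median member (709 genes, median length 614 nt) had a median of -0.45, and 59.5% of them fell. Members had -1.55, and 98.7% of them fell. Within the members, the log2 fold change had a Pearson's r of 0.20 with log2 length, 0.21 with GC content and -0.28 with log2 mean CPM (n = 76 genes, which share the libraries). With loess offsets for length and GC content, the members' median was -1.10, 72 fell and 1 rose. Under these offsets the median was 0.05 for all tested genes with a length. It was 0.12 for the non-members no longer than the median member. The offsets are fitted over all genes with a length, so medians near 0 there follow from the fit. The number of all tested genes called with these offsets is not given here. With offsets for length alone the members' median was -1.05.

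**Figure D5:**
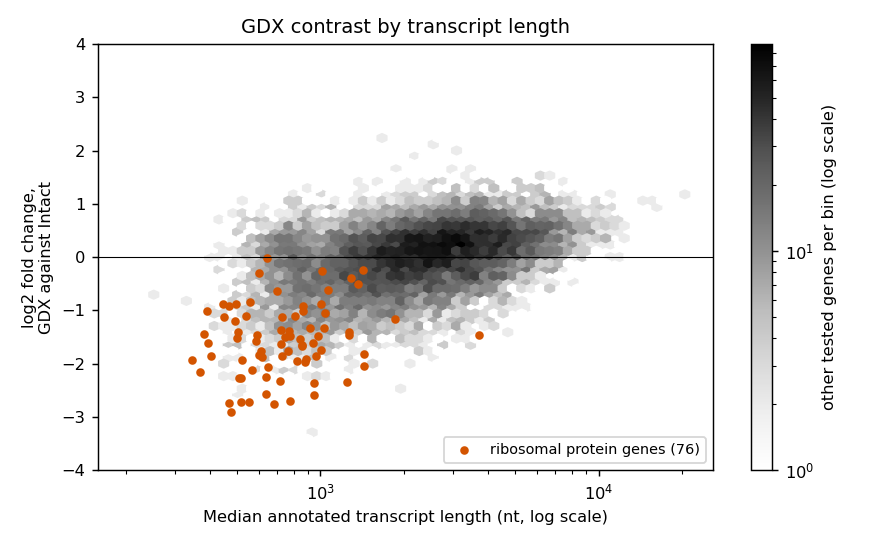
Log2 fold change between GDX and Intact mice against the median annotated transcript length (nt, log scale) for the 76 ribosomal protein genes (orange) and for other tested genes (grey, darker bins hold more genes). The other genes move from a median of -0.32 in the shortest length quartile to 0.33 in the longest, and the orange points lie mostly below the grey ones of the same length.

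Relatives outside the rule and other gene lists were read beside the members. Over all 15414 tested genes, 6358 rose and 5381 fell in GDX mice (median 0.07). Fau, whose small subunit protein is made as a fusion, had a log2 fold change of -1.26 (SE 0.14) in GDX mice, and Rack1, a scaffold protein on the small subunit, one of -1.30 (SE 0.11). All 8 tested genes of that list fell in the edgeR test, and the lowest was Rpl22l1, a paralog of Rpl22, at -2.70 (SE 0.25). The 3 pseudogenes marked as such by symbol with a mean of at least 5 CPM fell too (median -2.20).

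Of 72 mitochondrial ribosomal proteins, 68 fell and 1 rose (median -0.92), between Mrpl41 at -2.39 (SE 0.20) and Mrps5 at 0.17 (SE 0.05). Of 79 nuclear-encoded subunits of the respiratory chain and ATP synthase, 71 fell and 3 rose (median -1.12), between Ndufa4 at -2.78 (SE 0.22) and Sdha at 0.26 (SE 0.06). Within Intact mice, the log2 summed CPM of these lists had Pearson's r of 0.96 and 0.94 with the log2 summed share of the members (n = 24), and within GDX mice -0.16 and -0.55, all as descriptions of libraries scaled to 1 total. The GDX values hold the difference between XX and XY mice. For the mitochondrial ribosomal proteins r was -0.02 in the 12 XX and 0.45 in the 12 XY GDX mice, and for the respiratory chain and ATP synthase 0.04 and 0.12.

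Of 41 translation factors, 26 fell and 11 rose (median -0.37), from Eif3e at -2.03 (SE 0.18) to Eif3a at 0.88 (SE 0.11), both subunits of initiation factor eIF3. Eef1a1, the factor that delivers aminoacyl-tRNA, is a TOP message and had -0.74 (SE 0.07), while Eef2, the translocation factor and also a TOP message, had 0.27 (SE 0.05). With length and GC offsets Eef2 turned to -0.09 and was called lower, and with 1 surrogate variable (0.10) it did not pass. Of 89 genes of ribosome biogenesis, 41 fell and 35 rose (median -0.08), from Nop10, a small protein of the H/ACA particle, at -1.97 (SE 0.16) to Mdn1, a very large ATPase, at 1.04 (SE 0.08). Npm1, which carries ribosomal particles out of the nucleolus, had -0.95 (SE 0.09). Ribosome stress and quality control genes gave 5 that fell and 7 that rose of 16, from Znhit3 at -2.23 (SE 0.20) to Gcn1, an activator of the stress kinase Gcn2, at 1.02 (SE 0.12).

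Of 45 regulators in the TOR and MYC list, 22 rose and 17 fell (median 0.11), shares near those of all tested genes (6358 higher and 5381 lower of 15414). Those called ranged from Lamtor5, a small subunit of the Ragulator complex, at -1.82 (SE 0.16) to Mnt, a partner of Max, at 0.52 (SE 0.11). Larp1 had 47.1, 117 and 206 CPM in Intact and 163, 182 and 201 CPM in GDX mice (log2 fold change 0.50, SE 0.09). Mtor had 0.36 (SE 0.08) and Myc 0.46 (SE 0.18), and Eif4ebp1, a translational repressor that mTOR inactivates, had -0.21 (SE 0.05). These passed the edgeR test, although in CPM Eif4ebp1 hardly differed (medians of 22.7 CPM in Intact and 22.5 CPM in GDX mice). With length and GC offsets Larp1 (0.02), Mtor (-0.05) and Eif4ebp1 (-0.06) did not pass, and with 1 surrogate variable Mtor (0.10) and Myc (0.06) did not.

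Among Intact mice, members had higher values with ovaries than with testes, but the calls depended on the fit and on single mice. The gonadal effect, Ov Intact against Te Intact, was positive for 75 of 76 members, with a median of 0.50 (all tested genes 0.04), and 44 passed the edgeR test as higher and 0 as lower, where 14.1% of all tested genes were higher. Of the 44, 24 belonged to the large and 20 to the small subunit. The Intact mice are shared with the ovariectomy and castration comparisons. Rps24 had 167, 874 and 2319 CPM in the 12 Ov Intact and 88.5, 521 and 1565 CPM in the 12 Te Intact mice. Its log2 fold change was 0.85 (SE 0.31, adjusted p = 0.036, edgeR), and Rpl35 had 0.83 (SE 0.30, adjusted p = 0.033, edgeR). Rpl24 (-0.09, SE 0.07) and Rpl4 (0.09, SE 0.06) did not pass. In no member did the Ov and Te Intact mice separate in CPM.

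The number of members called in the gonadal effect depended on single mice and on the fit. It was 71 without XY Te Intact replicate 3, 68 without XX Ov Intact replicate 3, 2 without XX Ov Intact replicate 6 and 1 without XY Ov Intact replicate 6, and leaving out any of 10 other Intact mice gave 9 to 20. A fit of the Intact mice alone called none, and one with 1 surrogate variable called 9. The shares of all tested genes called in these alternative fits are not given here. Leukocyte markers moved the same way as members, with 15 of 24 higher and 0 lower with ovaries. Their summed level was 373 to 2160 CPM in Ov Intact and 282 to 1355 CPM in Te Intact mice. None of the 24 was at 0 in every mouse, Ptprc (CD45) had a median of 22.0 CPM in Intact mice, and their part in the result was not tested. Unmapped reads made up 6.99% to 9.79% of all reads in Ov Intact and 8.42% to 16.5% in Te Intact mice. Reads mapping to several places made up 10.7% to 14.4% in Ov Intact and 11.0% to 18.9% in Te Intact mice. The part of these read shares was not tested either.

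The chromosomal effect, XX against XY mice over all 48, asked whether the sex chromosomes change members. It was negative for 74 of 76 members (median -0.25, all tested genes 0.05), and 7 passed the edgeR test as lower in XX mice, a share of members below the 14.8% of all tested genes that were lower. Among them, named after their values were seen, were Rps29 (-0.35), Rps4x (-0.39), Rps28 (-0.32), Rps9 (-0.30), Rpl3 (-0.23) and Rps26 (-0.20). Rpl35 (-0.46, SE 0.21) and Rps15a (-0.46, SE 0.20) had lower values yet did not pass, and Rpl24 (0.04, SE 0.05) and Rps2 (0.02, SE 0.05) had the highest values. With library totals 55 members were called and with 1 surrogate variable 67, whereas leaving out single mice gave 2 to 51. It was 51 without XX Ov Intact replicate 6, 44 without XY Te Intact replicate 5 and 2 without either XX Ov Intact replicate 5 or XX Te Intact replicate 1. The shares of all tested genes called in these alternative fits are not given here, so the counts cannot be read as particular to members.

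Within Intact mice, 1 member was lower in XX mice, Rps29 (log2 fold change -0.41, SE 0.14, adjusted p = 0.044, edgeR), where 6.42% of all tested genes were lower. The median over members was -0.41, and 54 had an unadjusted p under 0.05, as did 3686 of all 15414 tested genes. Without XY Te Intact replicate 5, the Intact mouse with the lowest summed share, 43 members were called, without XX Ov Intact replicate 6 18 were called, and leaving out any of 14 other Intact mice left 0.

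Within GDX mice, the members' values lay slightly below 0 for XX against XY. In the fit of all 48 mice, 69 of 76 were negative with a median of -0.11 (all tested genes 0.08), and none passed the edgeR test, where 14.8% of all tested genes were lower. A single member had an unadjusted p under 0.05, against 6630 of all 15414 tested genes. That fit shares 1 spread over both cohorts, and the spread of members was larger in Intact mice, as given above. Fitted on the 24 GDX mice alone, 58 members were lower in XX mice and 1 was higher in the edgeR test, where 22.5% of 14857 tested genes were lower. In that fit, Rps29 had -0.34 (adjusted p = 5.0e-05), Rps15a -0.29 (adjusted p = 3.6e-05) and Rps20 -0.26 (adjusted p = 8.8e-05), and the member that was higher was Rps27l at 0.24 (adjusted p = 0.00014), all by edgeR.

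In CPM, every XY GDX mouse lay above every XX GDX mouse for 7 members, Rpl26, Rpl6, Rps13, Rps15, Rps24, Rps4x and Rps6 (9.21% of members), a separation shown by 6.94% of all tested genes. This count was added after seeing the data, and on TMM-scaled CPM it was 0 of 76 members and 5.55% of all tested genes. Rps24 had 106, 125 and 135 CPM in XX GDX and 138, 162 and 189 CPM in XY GDX mice. Rps6 had 56.4, 64.1 and 74.1 CPM in XX GDX and 75.3, 80.3 and 95.2 CPM in XY GDX mice.

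Leukocyte markers also differed, with 18 of 24 lower and 0 higher in XX GDX mice, and a summed level of 202 to 599 CPM in XX GDX and 579 to 2420 CPM in XY GDX mice. Within the 12 XX and the 12 XY GDX mice, Pearson's r between the log2 summed leukocyte level and the log2 summed share of members was 0.37 and 0.46. The N_noFeature share was 8.52% to 10.1% in XX GDX and 9.98% to 11.3% in XY GDX mice. Their part in the result was not tested. With the N_noFeature share as a covariate 64 members were called lower in XX GDX mice, in the fit that cannot tell the covariate and GDX apart. The share of all tested genes called in that fit is not given here, so the count cannot be read as particular to members.

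In the TMM-scaled fit of all mice, mitochondrial ribosomal proteins had the opposite sign in GDX mice, with 19 of 72 higher and none lower in XX mice (median 0.22). So did the respiratory chain and ATP synthase subunits, with 21 of 79 higher (median 0.30), where 19.5% of all tested genes were higher. Among members 0 were called and the median was -0.11. In CPM from library totals the summed levels of both lists overlapped. The mitochondrial ribosomal proteins had 1573 to 1793 CPM in XX GDX and 1522 to 1730 CPM in XY GDX mice. The respiratory chain and ATP synthase subunits had 8188 to 9587 CPM in XX GDX and 7228 to 8611 CPM in XY GDX mice. No member passed the test of whether the chromosomal effect differed between Intact and GDX mice (median difference 0.33, smallest adjusted p = 0.50, edgeR, 0 of 76 with an unadjusted p under 0.05), where 2.12% of all tested genes did.

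Rps4x, Rpl10, Rpl36a and Rpl39 lie on the X chromosome, and Rps4x encodes the small subunit protein whose human relative escapes X inactivation. Rps4x had 121, 136 and 156 CPM in XX GDX and 159, 182 and 222 CPM in XY GDX mice, so all 12 XY mice lay above all 12 XX mice. In log2 CPM the XX minus XY difference was -0.39 (two-sided exact permutation p = 7.4e-07, adjusted 5.9e-06 over the 8 tests of these genes). That p was the smallest these 2704156 arrangements allow. In the fit over all genes the XX against XY median in GDX mice was -0.12 for the 4 X-linked and -0.11 for the 72 autosomal members. Rpl10, whose protein joins the large subunit late and closes its tRNA sites, had -0.30 (exact permutation, adjusted p = 8.9e-06), Rpl36a -0.30 (exact permutation, adjusted p = 0.00016) and Rpl39 -0.29 (exact permutation, adjusted p = 0.0014). On TMM-scaled CPM the differences were -0.21, -0.12, -0.12 and -0.11, and Rpl36a and Rpl39 did not pass.

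In Intact mice the same differences were -0.56 for Rps4x, -0.43 for Rpl10, -0.25 for Rpl36a and -0.47 for Rpl39. None of them passed the exact permutation test (adjusted p = 0.12 to 0.15). None of the 4 was higher in XX than in XY mice in either cohort. In the fit over all genes they had GDX against Intact values between -1.77 and -0.92 and all 4 fell, in the same range as the autosomal members (median -1.53).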

How the data were processed

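Liver RNA of 48 FCG mice (1 library each) was sequenced from KAPA mRNA HyperPrep libraries. The authors used STAR (version 2.7.10a, genome build GRCm39) for alignment and gene counting, per the labels. The deposited values are raw counts for 55414 genes, followed by 4 summary lines that entered no test. The strand setting and annotation release were not given in the sources used here. The study's text gives other durations of HFD than the labels. Groups came from the labels, and nothing pairs mice across groups. Symbols were matched to 56.0% of the identifiers. The members, gene lists and tests were chosen with earlier results of these data known.

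CPM were computed from reads counted on genes, and shares of summary lines from all reads. The model held 8 group means. It was fitted by the robust quasi-likelihood method of edgeR (version 4.0.16, under R 4.3.3) after TMM scaling and filterByExpr, each comparison was a contrast, and p-values were adjusted by Benjamini-Hochberg over 15414 genes. A gene was called at an adjusted p under 0.05. All 48 mice entered, and 47 were an alternative, because the legends of the study give fewer Te Intact mice. X-linked members were compared by two-sided exact permutation tests (scipy 1.17.1, Python 3.11.15). Transcript lengths and GC content came from the GENCODE annotation of NCBIM37, an older build than that of the counts, which covered all 76 members and 84.8% of tested genes. Alternatives were other normalizations and filters, the Wald test of DESeq2 (version 1.42.0), 1 surrogate variable from sva (version 3.50.0), the N_noFeature share, loess offsets (span 0.3), the compared arms alone, a fold change above 1.2 and leaving out each mouse. Offsets for length alone and the counts of members without overlap, between XX and XY GDX mice and by gonad, were added after seeing the data.

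Genes named in full were the 4 highest and 4 lowest members in GDX, the 2 highest and 2 lowest in the gonadal and chromosomal effects, the X-linked members, the 3 highest and 3 lowest per length, the 3 on either side of the CPM limit, Rplp0, Rplp1, Rplp2, Rpsa, Rps6, Rps27a, Rpl3l and Rps27l, the relatives outside the rule, Larp1, Eif4ebp1, Mtor and Myc, and the highest and lowest called gene of each other list. Eef1a1, Eef2 and Npm1 were added for their roles, and other genes were chosen after their values were seen. Some genes are not reported here. On simulated counts for the GDX contrast (14958 genes, 200 changed), 190 were recovered among 203 called, 97 of those changed by a log2 of 1 and 93 of those changed by 0.58.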

Additional observations from a re-analysis of the deposited data

Results flagged for a closer look

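Among the summed shares, N_noFeature shares and named members, 200 sets of 6 mice were examined for a mouse far from the other 5 by Dixon's test, which flags about 1 in 20 sets by chance. The shares gave none. For named members 8 highest values stood apart. In XY Te GDX replicate 1, Rpl17 had 194 CPM (next highest mouse 172), Rplp0 251 CPM (next 209), Rps20 117 CPM (next 94.5) and Rpsa 184 CPM (next 161). In XX Ov GDX replicate 3, Rps15a had 51.6 CPM (next 45.1) and Rps20 73.9 CPM (next 66.8). Rps6 had 95.2 CPM in XY Ov GDX replicate 5 (next 81.2), and Rps2 had 279 CPM in XX Te Intact replicate 2 (next 225).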

How the results depend on the processing

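No paired analysis was possible because every mouse belongs to a single group and the labels give no litter or other pairing. With the N_noFeature share as a covariate, 0 members were called lower in GDX, ovariectomy and castration, the medians turned to 0.80, 0.53 and 1.11, and the calls were 70 in the gonadal effect, 73 in the chromosomal effect over all mice, 2 within Intact, 64 within GDX and 10 in castration minus ovariectomy. Under that covariate the GDX against Intact values of the named members turned positive, with Rps27l 0.85, Rps25 1.12, Rps24 1.23, Rpl34 1.12, Rpl17 1.13, Rpl35 1.46, Rps15a 0.99, Rps27a 1.12, Rps6 1.03, Rpl10 1.03, Rpl13a 0.77, Rpl36a 0.83, Rpl39 0.69, Rps4x 0.81, Rps20 0.76, Rpsa 0.73, Rplp0 0.38, Rplp1 0.49, Rplp2 0.77, Rpl4 0.35, Rpl28 0.31 and Rps2 0.11. Since the cohorts do not overlap in that share, the fit reads it as part of the cohort. The calls over all tested genes under that covariate are not given here. With length and GC offsets Rpl28 turned to 0.032, and with length offsets alone Rpl28 turned to 0.28 and Rps2 to 0.13.

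In the gonadal effect, no filter beyond 1 count gave 5 calls, the compared arms alone 0 and 1 surrogate variable 9. In the chromosomal effect over all mice, library totals gave 55, the Wald test of DESeq2 15, at least 10 counts in every mouse 14, 1 surrogate variable 67, length and GC offsets 47, length offsets alone 49 and a fold change above 1.2 4. Within Intact mice, library totals gave 2, no filter, 47 mice and the compared arms 0 each, 1 surrogate variable 7, and both offsets 13. Within GDX mice, library totals gave 14, the compared arms 58, 1 surrogate variable 44, length and GC offsets 11 and length offsets alone 8. In castration minus ovariectomy, length and GC offsets gave 2 and length offsets alone 1. The TMM-scaled differences of Rpl36a (-0.12) and Rpl39 (-0.11) in GDX mice no longer passed. The causes of these differences were not tested. Except where stated above, the calls over all tested genes under these settings are not given here, so these counts cannot be read as particular to members.

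Leaving out each mouse gave 75 to 75 calls in GDX and in ovariectomy, 73 to 75 in castration, 1 to 71 in the gonadal effect, 2 to 51 in the chromosomal effect, 0 to 43 within Intact, 0 to 2 within GDX, 0 to 9 in castration minus ovariectomy and 0 in the interaction of chromosomes with GDX. For these fits too, the calls over all tested genes are not given here.

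Levels of single members are limited by reads shared with pseudogenes, and the GDX comparison by cohorts that differ in diet, age and N_noFeature share.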
